A study of Mus musculus with 11 samples.

Results

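The comparison of ANXA2 knockout with wild type mesenchymal stromal cells uses 7 of the 11 libraries of the series, chosen by the genotype in their labels: 3 libraries labelled ANXA2 knockout and the 4 labelled wild type that share a table of normalised reads with them. The cells were primary mesenchymal stromal cells taken from mouse bone marrow, the strain was C57/BL6 in both groups, and no treatment was given. The labels state neither the age or sex of the mice nor how the knockout allele was made, and they do not say whether the libraries of a group came from separate animals or cultures. The p-values therefore measure only the spread of these samples, part of which may be technical. Knockout libraries are called 1, 3 and 4 and wild type libraries 1 to 4, after their columns in the table. Knockout values are always given in the order 1, 3, 4.

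Annexin A2 is a calcium-dependent protein that binds acidic phospholipids on the inner face of the plasma membrane and on endosomes. A dimer of the small protein S100a10 can join a pair of annexin A2 molecules into a complex that bridges membranes, binds actin and, on the cell surface, holds plasminogen and its activator. Annexin A2 has been tied to exocytosis, membrane repair, fibrinolysis and cell adhesion. Mesenchymal stromal cells are adherent cells of the marrow that give rise to bone, fat and cartilage cells and that hold and feed blood stem cells.

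The libraries held 23.3 to 32 M reads over the 19259 genes of the table, which leaves out genes with 0 reads in any library other than wild type library 4, and 16123 genes with at least 10 normalised reads (reads divided by the size factor of the library) in 3 or more libraries were tested. Genes of the stromal lineage were high in each library: the receptor gene Pdgfra at 19168 to 25495, the chemokine gene Cxcl12 at 13601 to 18510 and the leptin receptor gene Lepr at 3415 to 5697. Markers of blood cells were present too and are given with the other cell types. The first principal component held 32.6% of the variance and did not separate the genotypes, and log2 values correlated across genes at 0.972 to 0.986 within the knockout and 0.966 to 0.986 between groups. Genes are not independent replicates. Xist, which is transcribed from the inactive X chromosome of female cells, had 652, 226 and 203 normalised reads in the knockout, against 1829, 1997, 1.16 and 0.959 in wild type libraries 1 to 4. Within the wild type, libraries 1 and 2 were thus high and 3 and 4 at about 1 normalised read, and all knockout libraries lay in between. In such bulk RNA, fewer cells of a type and less RNA per cell cannot be told apart.

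Anxa2 itself was read first, as a check of the labels. The gene (ENSMUSG00000032231.15, chromosome 9) had 10427, 8041 and 7159 normalised reads in the knockout, against 31163, 30240, 27947 and 29937 in wild type libraries 1 to 4. Every knockout library lay below every wild type library, and transcripts remained at 28.6% of the wild type mean. The log2 fold change on the scale of log2(normalised reads + 1) was -1.82 (95% interval -2.16 to -1.48, limma adjusted p = 0.00191), and the exact two-sided permutation p of 0.0286 is the smallest that 3 against 4 libraries allow. Which part of the gene was removed is not stated in the labels, and reads of all exons are summed.

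S100a10, the light chain of the annexin A2 complex, did not pass the test in these RNA data. Its reads had 7731, 6889 and 8238 normalised reads in the knockout, against 7199, 7091, 5130 and 7659 in wild type libraries 1 to 4, so the groups overlapped (log2 fold change 0.18, 95% interval -0.17 to 0.53, limma adjusted p = 0.72). Of 9 tested annexins other than Anxa2, 0 passed limma or DESeq2 and 0 had an unadjusted p under 0.05. Anxa11 had the largest difference in this family, at 3050, 3846 and 4078 in the knockout and 1168, 1700, 2995 and 3484 in the wild type (log2 0.77, limma adjusted p = 0.573), with overlapping groups. It passed limma when log2 Xist was added as a covariate (adjusted p = 0.0233). Anxa1, which takes part in the resolution of inflammation, was at 57982, 42083 and 42423 against 40392, 37654, 37131 and 38988 (log2 0.29, limma adjusted p = 0.617), without overlap. Of 11 tested S100 and scaffold genes, 0 passed limma or DESeq2. At an unadjusted p under 0.05, 2 were higher and 1 lower (background 4.65% and 4.04%). S100a1 had the smallest p, at 800, 560 and 826 against 506, 494, 454 and 570 (log2 0.51, limma adjusted p = 0.518), with overlap. S100a11 (8371, 8641 and 12084 against 7220, 6536, 6954 and 8324) was the 1 member whose groups did not overlap, where 4.56% of all tested genes lay wholly above the wild type.

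Across all genes the knockout changed few transcripts past the threshold. Of 16123 tested genes, 18 (0.112%) passed limma at an adjusted p under 0.05, with 9 higher (0.0558%) and 9 lower (0.0558%). For each of the 18, every knockout library lay on 1 side of all wild type libraries. edgeR on the whole reads recovered from the table called 21 genes (0.13%), and DESeq2 called 104 (0.645%), 61 of them higher (0.378%) and 43 lower (0.267%). Both of those tools called all 18 limma genes as well. At an unadjusted limma p under 0.05 there were 1401 genes (8.69%), 749 higher (4.65%) and 652 lower (4.04%). Knockout libraries lay wholly above the wild type for 735 genes (4.56%) and wholly below for 747 (4.63%), and 8721 genes (54.1%) had a log2 fold change above 0.

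The typical difference was small. The median absolute log2 fold change was 0.165, and 158 genes were at least 2-fold higher and 149 at least 2-fold lower, whether or not they passed the test. The 95% interval of a gene reached a median of 0.417 to either side on the log2 scale, 0.803 among the 4031 genes with the fewest reads and 0.307 among the 4031 with the most. These are medians, and single genes had narrower or wider intervals. From the genes of middling reads to the most read ones the width was about the same (0.309 and 0.307).

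Rpl29, which encodes a protein of the large ribosomal subunit, had the largest decrease. It had 115, 126 and 178 normalised reads in the knockout, against 1431, 1359, 1123 and 1444 in wild type libraries 1 to 4, with no overlap (log2 fold change -3.27, SE 0.17, limma adjusted p = 0.000193). Abhd14b, an enzyme gene of the alpha/beta hydrolase family, had 52.8, 90.6 and 59.2 normalised reads in the knockout, against 599.7, 501, 404 and 436 in wild type libraries 1 to 4 (log2 -2.85, limma adjusted p = 0.00132). Knockout library 3 was the highest of its group but still far below the lowest wild type library.

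Slc35g2, a gene of the nucleotide sugar transporter family, had 21.6, 11.6 and 8.16 normalised reads in the knockout, against 110.2, 95.3, 83.8 and 72.9 in wild type libraries 1 to 4 (log2 -2.72, limma adjusted p = 0.0208). Coro2b, which encodes an actin-binding coronin of focal adhesions, had 151, 150.2 and 191 normalised reads in the knockout, against 491, 531, 791 and 575 in wild type libraries 1 to 4 (log2 -1.84, limma adjusted p = 0.00753). Knockout libraries were close together for Coro2b, and wild type library 3 stood highest. Fam219b had 176, 154 and 193 normalised reads in the knockout, against 449, 499.9, 429 and 505 in wild type libraries 1 to 4 (log2 -1.43, limma adjusted p = 0.00456). Glb1, the lysosomal beta-galactosidase used as a stain for senescent cells, had 722, 710.0 and 657 normalised reads in the knockout, against 1446, 1280, 1305 and 1259 in wild type libraries 1 to 4 (log2 -0.92, limma adjusted p = 0.0112). It was the smallest of the called changes, with both groups tight around their means. The long non-coding RNA Gm42047 was at 225, 249 and 205 in the knockout and 476, 516, 447 and 547 in the wild type (log2 -1.13, limma adjusted p = 0.0157).

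Plac9a, which encodes a small secreted protein, rose most among genes of high read number. It had 16266, 14529 and 16001 normalised reads in the knockout, against 3836, 2969, 2924 and 3076 in wild type libraries 1 to 4 (log2 fold change 2.29, SE 0.124, limma adjusted p = 0.000193). The knockout libraries were close together, and wild type library 1 was the highest of its group. Tmem254a, a transmembrane protein gene next to Plac9a on chromosome 14, had 2896, 2501 and 2315 normalised reads in the knockout, against 865, 702, 743 and 617 in wild type libraries 1 to 4 (log2 1.82, limma adjusted p = 0.00132). Lrmda, another gene of chromosome 14 that is tied to melanocyte differentiation, was at 58.2, 72 and 87.8 in the knockout and 15.9, 7.46, 5.82 and 6.72 in the wild type (log2 2.96, limma adjusted p = 0.0225).

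Plac9a has a near-identical copy, Plac9b, which was not analysed here, so reads of the copies may be mixed and the value of Plac9a is uncertain. The stretch from 250 bases before to 50 after the annotated start of each is shown because it shows how far they match (RefSeq, GRCm38.p6, minus strand, chr14:25902844-25903143 and chr14:26182302-26182601). Capitals mark the longest run shared by both, 222 of 300 bases.
Plac9a: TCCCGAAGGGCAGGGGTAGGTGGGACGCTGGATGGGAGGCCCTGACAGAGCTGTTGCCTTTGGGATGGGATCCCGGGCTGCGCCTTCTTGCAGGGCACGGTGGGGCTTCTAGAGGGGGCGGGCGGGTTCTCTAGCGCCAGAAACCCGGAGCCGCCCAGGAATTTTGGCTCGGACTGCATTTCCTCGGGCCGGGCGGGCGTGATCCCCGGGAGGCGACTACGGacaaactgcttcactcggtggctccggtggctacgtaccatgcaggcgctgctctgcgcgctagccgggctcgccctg
Plac9b: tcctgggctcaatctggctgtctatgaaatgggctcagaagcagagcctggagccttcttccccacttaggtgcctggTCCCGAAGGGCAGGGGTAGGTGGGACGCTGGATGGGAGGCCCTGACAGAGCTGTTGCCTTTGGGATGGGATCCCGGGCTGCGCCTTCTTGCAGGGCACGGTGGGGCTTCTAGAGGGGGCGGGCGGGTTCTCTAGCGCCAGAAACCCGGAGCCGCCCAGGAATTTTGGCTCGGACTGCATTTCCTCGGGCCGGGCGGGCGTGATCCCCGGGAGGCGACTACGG
The windows are offset because the annotated starts differ, and the shared run opens the Plac9a window and closes the Plac9b one. For Tmem254a the first annotated start has the same 300 of 300 bases as Tmem254c and shares a run of 284 with Tmem254b, neither of which was analysed here, so its values are uncertain in the same way.

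Erdr1, named as a gene of erythroid differentiation and annotated on chromosome X, had the largest fold change of the table. It had 733, 366 and 389.9 normalised reads in the knockout, against 2.12, 2.49, 3.49 and 0 in wild type libraries 1 to 4 (log2 7.48, limma adjusted p = 0.00111). The wild type was near 0 in all libraries, with 0 reads in library 4, so the size of the fold depends on the pseudocount. Gm11868, a processed pseudogene, was at 127, 128 and 88.8 against 4.24, 8.29, 8.15 and 5.76 (log2 3.94, limma adjusted p = 0.00132). Igkv5-43, a variable segment of the immunoglobulin kappa light chain, was at 74.4, 39.1 and 59.2 against 4.24, 11.6, 3.49 and 3.84 (log2 3.20, limma adjusted p = 0.0434). Segments of this family resemble each other closely, so this value is uncertain, as are those of Erdr1 and of Gm11868, whose sequence copies that of a parent gene.

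Rab10os, annotated as antisense RNA on chromosome 12, had 637, 662 and 662 normalised reads in the knockout, against 346, 329, 263 and 305 in wild type libraries 1 to 4 (log2 1.08, limma adjusted p = 0.0182). Whether the counting used strand is not given in the sources used here, so reads of an overlapping gene may be included. The predicted genes Gm47283 (619.7, 345 and 426 against 107, 139, 58.2 and 74.8, log2 2.31, limma adjusted p = 0.0434) and Gm21104 (273, 273 and 313 against 124, 93.7, 109 and 77.7, log2 1.51, limma adjusted p = 0.0225) were also higher. Gm47283 is annotated on chromosome Y but was read in wild type libraries 1 and 2, which had the highest Xist, so its reads are uncertain.

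**Figure D1:**
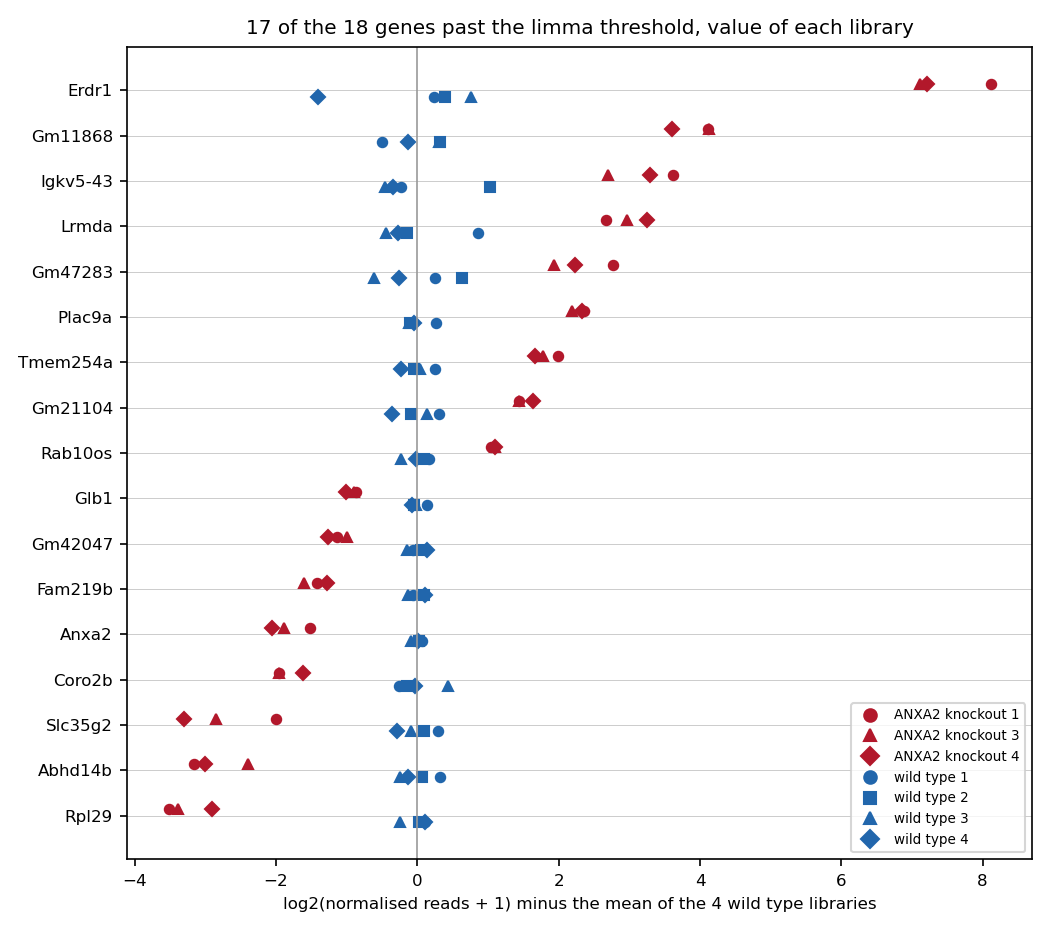
Values of 17 of the 18 called genes in each library, as log2(normalised reads + 1) minus the mean of the 4 wild type libraries; red points are the 3 ANXA2 knockout libraries and blue points the 4 wild type libraries, with the marker shape giving the library number. For every gene drawn the red points lie wholly to one side of the blue ones, from Erdr1 at a log2 fold change of 7.48 to Rpl29 at -3.27.

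The calls of Rpl29, Plac9a, Erdr1, Abhd14b, Anxa2, Tmem254a, Gm11868 and Fam219b held when any 1 of the 7 libraries was left out, with a highest adjusted p of 0.0437 over these and the other alternatives. Coro2b lost its call without knockout library 3 (limma adjusted p = 0.0742). Glb1 did so without knockout library 3 or wild type library 2 (up to 0.0933). Slc35g2 lost it without any library other than knockout library 1 (limma adjusted p up to 0.144), Lrmda and Gm21104 without any other than wild type library 1 (up to 0.145) and Gm47283 and Igkv5-43 without any other than wild type library 2 (up to 0.161 and 0.178). Rab10os and Gm42047 lost it without any knockout library and without wild type library 2 or 4 (up to 0.145 and 0.114). Removal of knockout library 3 kept 8 of the 18 calls, that of wild type library 4 kept 10 and that of wild type library 2 kept 11, and these fits called 8, 10 and 11 genes in all.

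Of the 9 genes that fell, 8 are annotated on chromosome 9, the chromosome of Anxa2, which held 905 tested genes (5.63% of those with a position). Anxa2, the target itself, is 1 of the 8 and is also in the counts of lower genes that follow. DESeq2 called 33 genes of chromosome 9 among its 104, 11 higher and 22 lower. Knockout libraries lay wholly below the wild type for 86 genes of the chromosome (9.5%, against 4.63% of all tested genes) and wholly above for 41 (4.53% against 4.56%). The median log2 fold change over its tested genes was -0.01.

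**Figure D2:**
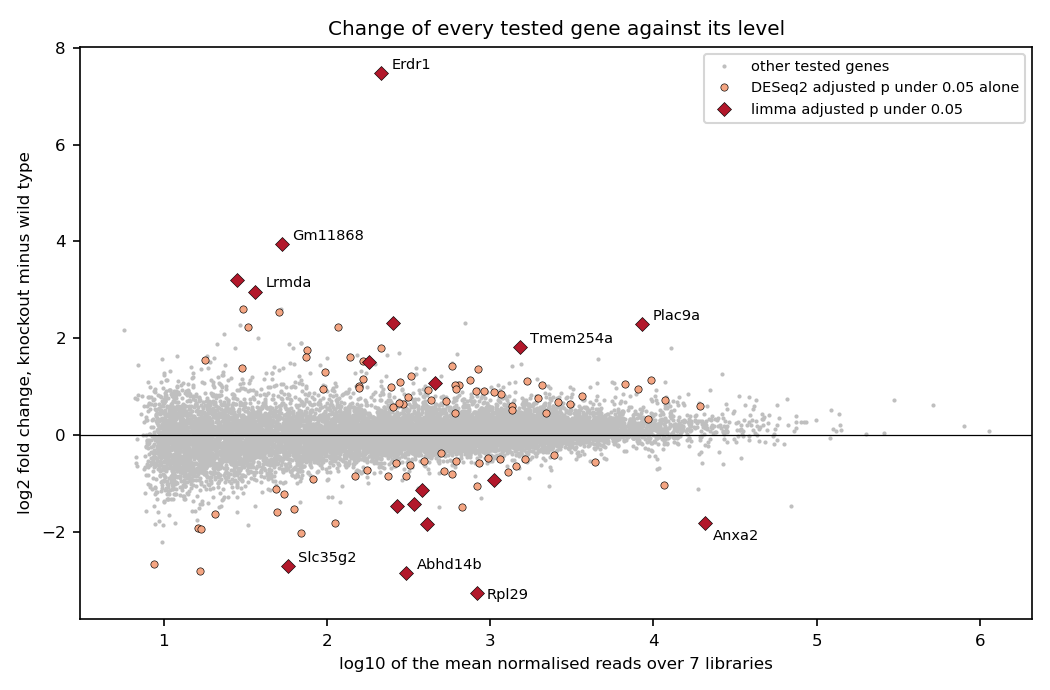
Log2 fold change of each tested gene (knockout minus wild type, vertical axis) against the log10 of its mean normalised reads over the 7 libraries (horizontal axis); dark diamonds passed limma and pale circles passed DESeq2 alone. Erdr1 (7.48) and Rpl29 (-3.27) have the largest changes in each direction. Other limma genes, such as Rab10os (1.08), have smaller changes than some genes that did not pass limma, such as Per1 (1.37). The spread of the grey points widens at low reads.

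DESeq2 called 86 genes that limma did not, and the groups of 84 of them did not overlap. After predicted genes and those with a mean under 50 were set aside, 46 higher and 27 lower remained, of which the 12 of largest change in each direction are described. None of them passed limma, so their values are given with both adjusted p. Nog, which encodes noggin, a secreted inhibitor of bone morphogenetic proteins, had 254, 392 and 413 normalised reads in the knockout, against 46.6, 109, 118 and 160.2 in wild type libraries 1 to 4 (log2 1.79, limma adjusted p = 0.309, DESeq2 adjusted p = 0.00118). The lowest knockout library was above the highest wild type library by a wide margin. Snap91, a clathrin adaptor gene best known in neurons, had 366, 164 and 122 normalised reads in the knockout, against 31.8, 46.4, 34.9 and 52.8 in wild type libraries 1 to 4 (log2 2.23, limma adjusted p = 0.099, DESeq2 adjusted p = 1.17e-06). Knockout library 1 was far above the other knockout libraries, which still lay above every wild type library.

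Hcn4, a pacemaker channel gene, was at 55, 51.5 and 184 against 37.1, 4.97, 9.32 and 15.3, highest in knockout library 4 and above every wild type library in all 3 (limma adjusted p = 0.462, DESeq2 adjusted p = 0.0233). Moxd1, a monooxygenase-like gene of neural crest cells, was at 217, 119 and 359 against 82.6, 74.6, 74.5 and 46.1 (limma adjusted p = 0.35, DESeq2 adjusted p = 0.00146). Stac2, an adaptor of calcium channels, was at 329.8, 263 and 202 against 69.9, 79.6, 93.2 and 123 (limma adjusted p = 0.0781, DESeq2 adjusted p = 2.56e-06), with no overlap. The chemokine gene Ccl19, which draws lymphocytes and dendritic cells through the receptor CCR7, had 109, 114 and 139 normalised reads in the knockout, against 42.4, 41.4, 52.4 and 24 in wild type libraries 1 to 4 (log2 1.61, limma adjusted p = 0.118, DESeq2 adjusted p = 1.26e-05). Foxf1, a transcription factor of mesenchyme around the gut and lung, was at 148, 110.2 and 179 against 40.3, 39, 83.8 and 80.6 (limma adjusted p = 0.451, DESeq2 adjusted p = 0.0446). Mpeg1, the pore-forming perforin-2 of macrophages, was at 574, 911 and 1279 against 273, 351, 293 and 389.5 (limma adjusted p = 0.14, DESeq2 adjusted p = 2.73e-05), highest in knockout library 4, which also held the most macrophage marker reads. The part of those cells in the result was not tested.

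Bckdhb, a subunit of the enzyme complex that commits leucine, isoleucine and valine to breakdown, had 607, 449 and 403 normalised reads in the knockout, against 236, 215, 184 and 191 in wild type libraries 1 to 4 (log2 1.22, limma adjusted p = 0.0518, DESeq2 adjusted p = 2.95e-07, edgeR adjusted p = 0.0439). Pccb, a subunit of propionyl-CoA carboxylase further down the same route, had 1062, 955 and 708 normalised reads in the knockout, against 485, 420.3, 416 and 443 in wild type libraries 1 to 4 (log2 1.02, limma adjusted p = 0.0571, DESeq2 adjusted p = 1.27e-06, edgeR adjusted p = 0.0456). Hemk1, a methyltransferase gene of mitochondrial translation, was at 281, 228 and 217 against 105, 124, 94.3 and 108 (log2 1.16, limma adjusted p = 0.0518, DESeq2 adjusted p = 4.64e-07, edgeR adjusted p = 0.0463). These 3 are the genes that edgeR called beside the 18, and all 3 are annotated on chromosome 9. No other tested branched-chain amino acid gene passed limma or DESeq2. Of the 24 tested, 8 lay above 0 (54.1% of all tested genes), and the median log2 fold change was -0.05. Dbt, another subunit of the same complex as Bckdhb, was at 282, 229 and 208 against 388, 324, 324 and 263.

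Among genes that DESeq2 called lower, Aldh1a2, the main enzyme of retinoic acid synthesis in the embryo, had 234, 380.3 and 331 normalised reads in the knockout, against 970.5, 628, 1506 and 635 in wild type libraries 1 to 4 (log2 -1.50, limma adjusted p = 0.278, DESeq2 adjusted p = 0.000649). Wild type library 3 stood far above wild type libraries 2 and 4 for this gene. Efcab7, a ciliary gene of hedgehog signalling, had 51.7, 54.2 and 30.6 normalised reads in the knockout, against 201, 153, 174 and 116 in wild type libraries 1 to 4 (log2 -1.81, limma adjusted p = 0.0571, DESeq2 adjusted p = 1.92e-07). Acpp, which encodes a prostatic acid phosphatase, was at 430.0, 572 and 546 against 980.0, 957, 1328 and 1027 (limma adjusted p = 0.0571, DESeq2 adjusted p = 1.6e-06). Cd163, a scavenger receptor of macrophages for haptoglobin and haemoglobin, was at 85.1, 104 and 113 against 147, 187, 208 and 189. Its limma adjusted p was 0.293 and its DESeq2 adjusted p 0.006. Of 20 tested macrophage and monocyte markers, Cd163 among them, 12 lay above 0 (54.1% of all tested genes). Without knockout library 4, 5 of the 20 did, with a median log2 fold change of -0.13, and without knockout library 1, 18 did.

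Ccdc9b was at 11.9, 33.8 and 33.7 against 86.9, 92.8, 113 and 110.3, and Prss50, a serine protease gene of the testis, at 20.5, 31.1 and 37.8 against 68.9, 87, 83.8 and 108. Slc10a1, best known as the bile acid carrier of the liver, was at 25.9, 39.1 and 26.5 against 77.3, 93.7, 54.7 and 64.3, and Aqp9, a channel for water and glycerol, at 166, 235 and 228 against 307, 403, 383 and 413. Pctp, a carrier of phosphatidylcholine, was at 137, 215 and 139.8 against 268, 295, 277 and 325, Arl5c at 345, 354 and 527 against 540.3, 829.8, 798 and 686 and Tex9 at 67.9, 48 and 46.9 against 106, 122, 81.5 and 99.8. Their DESeq2 adjusted p ran from 5.72e-06 (Ccdc9b) to 0.0486 (Arl5c), their limma adjusted p from 0.118 (Prss50) to 0.423 (Arl5c), and none of these 7 had overlapping groups. Ighv1-26, an immunoglobulin heavy chain segment with close relatives and so uncertain, was higher, at 109.9, 125 and 141 against 33.9, 49.7, 24.5 and 42.2 (limma adjusted p = 0.0621, DESeq2 adjusted p = 4.9e-07).

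Among the 40 functional lists, that of circadian clock genes had the most DESeq2 calls. The clock is a feedback loop in which the factors encoded by Arntl and Clock drive the Per and Cry genes, whose proteins then block that drive, with Dbp, Tef and Hlf as further outputs. Of 19 tested clock genes, 0 passed limma and 5 were higher by DESeq2 (background 0.378%), namely Tef, Per1, Wee1, Per2 and Per3. At an unadjusted p under 0.05, 10 were higher and 2 lower, against 4.65% and 4.04% of all tested genes. The list was set up with earlier results of these data known, so these counts are a description of it. The median log2 fold change was 0.62, against 0.02 over all tested genes.

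Per1, a repressor arm gene that also answers directly to glucocorticoids, had 1013, 1621 and 1191 normalised reads in the knockout, against 338, 334, 738 and 656 in wild type libraries 1 to 4 (log2 1.37, limma adjusted p = 0.378, DESeq2 adjusted p = 0.013). The lowest knockout library exceeded the highest wild type library, and the wild type itself split between libraries 1 and 2 and libraries 3 and 4. Per2 had 920.4, 977 and 653 normalised reads in the knockout, against 298, 463, 533 and 482 in wild type libraries 1 to 4 (log2 0.95, limma adjusted p = 0.393, DESeq2 adjusted p = 0.0176). Per3 was at 385, 348 and 309 against 177, 216, 252 and 239.8 (log2 0.66, limma adjusted p = 0.42, DESeq2 adjusted p = 0.0408). All 3 Per genes were without overlap. Tef, an activator that binds D-box sequences, had 3606, 2156 and 1671 normalised reads in the knockout, against 1106, 929, 1287 and 1026 in wild type libraries 1 to 4 (log2 1.12, limma adjusted p = 0.3, DESeq2 adjusted p = 0.00205). Wee1, a kinase that holds cells before mitosis and is under clock control, was at 1895, 1785 and 1052 against 893, 816, 866 and 839 (log2 0.84, limma adjusted p = 0.378, DESeq2 adjusted p = 0.00872). The outputs Hlf (305, 257 and 201 against 99.6, 192, 155 and 125) and Dbp (1759, 581 and 499 against 497, 133, 355 and 276) did not overlap either and passed neither test.

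The activators lay on the other side. Arntl was at 1147, 1324 and 1327 in the knockout and 1865, 2072, 1941 and 1449 in the wild type (log2 -0.52, limma adjusted p = 0.471), and Npas2, which can stand in for Clock, at 1187, 1751 and 1201 against 1877, 2145, 2026 and 1763 (log2 -0.52, limma adjusted p = 0.5). Neither gene overlapped between groups, and neither passed limma or DESeq2. Clock itself was at 1460, 1189 and 1128 against 1277, 1380, 1392 and 1142 and Cry1 at 975, 1087 and 1197 against 919.6, 1418, 1361 and 1255, both overlapping. Knockout library 1 had the highest list score, 0.819, while the other two scored 0.467 (library 3) and 0.160 (library 4) and the wild type from -0.101 to 0.181, where the score is the mean log2 difference from the wild type mean. Without knockout library 1 the list's median was 0.22 and its count at an unadjusted p under 0.05 to 6 higher and 2 lower. The time of day at which cells were collected is not given in the sources used here, and its part in the result was not tested.

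Starts of 3 of the clock genes that DESeq2 called higher are shown, chosen because they hold a match to a known clock motif: the first listed start of Per1 and of Tef and the start of Per3. Starts of the other called clock genes, Per2 and Wee1, were not searched. The E-box searched was CACGTG and the D-box TTATGTAA, each on both strands, and capitals mark the matches (RefSeq, GRCm38.p6, 250 bases before to 50 after the start). Per1 lies on the plus strand at chr11:69098699-69098998, Tef on the plus strand at chr15:81802423-81802722 and Per3 on the minus strand at chr4:151044616-151044915.
Per1: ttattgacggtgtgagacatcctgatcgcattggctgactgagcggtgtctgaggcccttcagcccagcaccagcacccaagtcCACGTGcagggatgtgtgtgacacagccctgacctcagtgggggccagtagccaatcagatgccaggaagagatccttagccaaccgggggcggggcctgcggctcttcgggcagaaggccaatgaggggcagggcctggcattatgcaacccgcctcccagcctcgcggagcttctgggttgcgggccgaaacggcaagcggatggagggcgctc
Tef: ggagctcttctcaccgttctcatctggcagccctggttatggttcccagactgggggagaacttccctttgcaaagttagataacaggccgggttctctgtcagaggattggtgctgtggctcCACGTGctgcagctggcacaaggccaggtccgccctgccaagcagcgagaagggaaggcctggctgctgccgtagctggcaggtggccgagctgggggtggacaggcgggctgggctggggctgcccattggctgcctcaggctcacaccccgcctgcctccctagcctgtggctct
Per3: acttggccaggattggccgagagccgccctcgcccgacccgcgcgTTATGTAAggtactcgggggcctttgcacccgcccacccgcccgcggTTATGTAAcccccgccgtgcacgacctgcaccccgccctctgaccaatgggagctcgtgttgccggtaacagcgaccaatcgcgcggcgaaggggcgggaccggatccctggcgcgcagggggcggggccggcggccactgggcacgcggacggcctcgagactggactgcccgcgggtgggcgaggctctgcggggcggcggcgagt
The second listed Tef start also holds an E-box, and the second Per1 start and the Dbp start hold none. The E-box occurred in 6 of 21 such windows (28.6%, 5 genes) of the 16 tested clock genes matched in the RefSeq table, against 7.15% of 32851 windows of all genes. The D-box was found in 1 of the 21 (4.76%, against 0.938%), where the Per3 window holds 2 copies. A match is a description and not a binding site, and windows without one show only that these letters are absent there.

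Glucocorticoid-induced genes and metallothioneins were the list with the highest median. Glucocorticoids act through a nuclear receptor that switches on genes such as Tsc22d3, Sgk1 and Per1, and metallothioneins, which bind zinc and copper, answer to the same hormones and to metals. All 18 tested members lay above 0, the median log2 fold change was 0.63, and 10 had an unadjusted p under 0.05 and were higher (background 4.65%). None passed limma, and Per1, Mt1 and Tsc22d3 were higher by DESeq2. Leaving out knockout library 1 took the median to 0.40 and the count at an unadjusted p under 0.05 to 5, and leaving out wild type library 2 took the count to 6. Per1 belongs to both this list and the clock list.

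Mt1 had 18975, 9497 and 14152 normalised reads in the knockout, against 6107, 4670, 8841 and 5792 in wild type libraries 1 to 4 (log2 1.14, 95% interval 0.54 to 1.75, limma adjusted p = 0.392, DESeq2 adjusted p = 0.00878). Knockout library 3 was the lowest of its group and only just above wild type library 3. Mt2 was at 5523, 2835 and 4518 against 1983, 1604, 3085 and 1871 (limma adjusted p = 0.471), where knockout library 3 lay below wild type library 3. Tsc22d3, an anti-inflammatory leucine zipper protein, was at 10773, 13438 and 5088 against 4439, 3393, 5852 and 4105 (log2 1.05, limma adjusted p = 0.518, DESeq2 adjusted p = 0.0496), with overlap. The kinase gene Sgk1 was at 27927, 18330 and 11623 against 10331, 9090, 13467 and 9660 and Errfi1, a brake on EGF receptors, at 53706, 22418 and 18230 against 13185, 12255, 19738 and 15116. Both were highest in knockout library 1 and passed neither test. Fkbp5, a co-chaperone of the receptor and a classic target, was at 1626, 2186 and 1703 against 957, 979, 1911 and 1760 (log2 0.45, limma adjusted p = 0.617).

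The starts of the metallothionein genes are shown for the metal response core, searched as TGCACNC and TGCGCNC on both strands and set in capitals, reverse-strand matches as they read here (RefSeq, GRCm38.p6, plus strand, chr8:94178839-94179138 for Mt1 and chr8:94172368-94172667 for Mt2).
Mt1: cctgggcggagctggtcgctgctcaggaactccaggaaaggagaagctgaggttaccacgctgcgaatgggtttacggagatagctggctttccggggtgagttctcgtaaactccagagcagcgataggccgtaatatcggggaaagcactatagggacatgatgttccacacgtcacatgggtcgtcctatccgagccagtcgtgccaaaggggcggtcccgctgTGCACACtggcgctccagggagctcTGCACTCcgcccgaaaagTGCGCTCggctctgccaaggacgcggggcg
Mt2: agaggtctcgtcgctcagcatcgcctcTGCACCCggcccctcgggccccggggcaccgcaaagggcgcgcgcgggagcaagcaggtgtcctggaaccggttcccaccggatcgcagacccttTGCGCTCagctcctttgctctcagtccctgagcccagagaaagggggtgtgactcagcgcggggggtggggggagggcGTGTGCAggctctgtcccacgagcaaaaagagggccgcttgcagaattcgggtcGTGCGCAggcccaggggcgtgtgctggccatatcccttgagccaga
The Mt1 window holds 3 matches and the Mt2 window 4, with no overlap among motifs in either. The short core was present in 25.7% of the 32851 windows of all genes and in 7 of 26 (26.9%) windows of the list, so its presence by itself does not set the list apart. A match is a description and not a site.

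**Figure D3:**
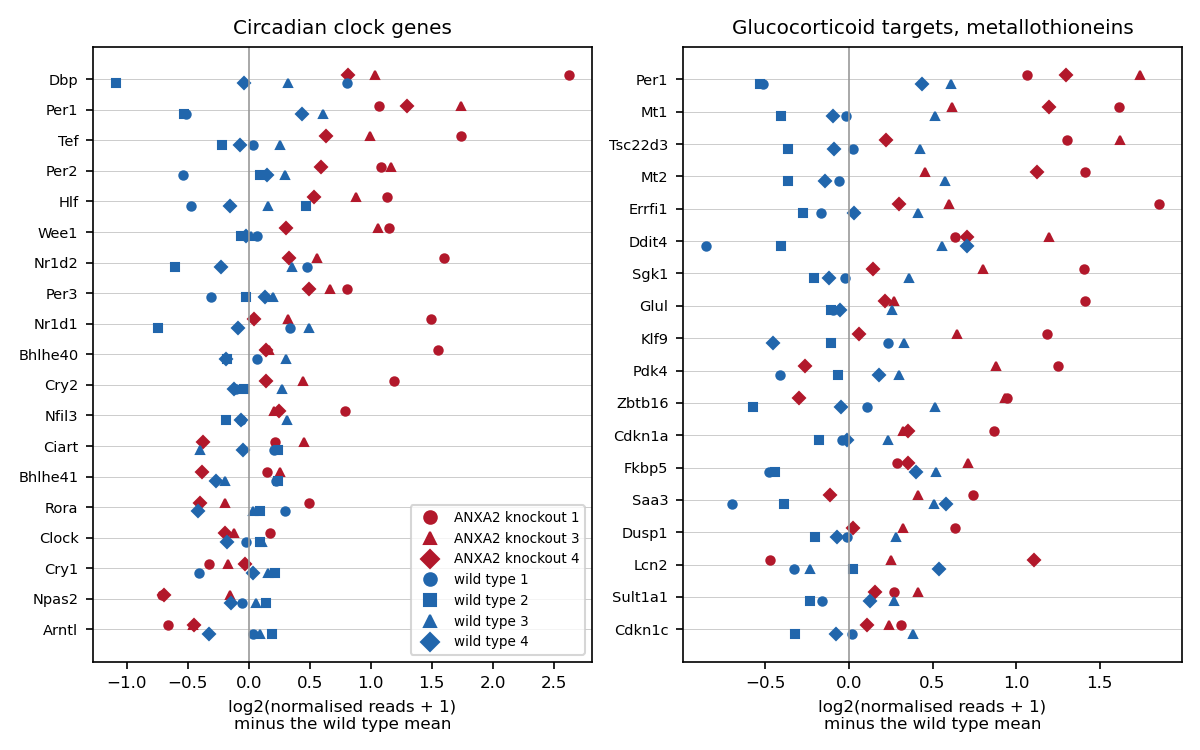
Clock genes (left) and glucocorticoid targets with metallothioneins (right) in each library, as log2(normalised reads + 1) minus the wild type mean; red is knockout and blue is wild type, with the marker shape giving the library number. Knockout library 1 (red circles) is furthest right for many genes, such as Dbp and Errfi1, and wild type library 3 (blue triangles) is often the highest wild type library.

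Immediate early genes, whose transcription answers a stimulus such as serum or handling without new protein synthesis, were mostly above 0 (25 of 27, against 54.1% of all tested genes, median log2 fold change 0.33). At an unadjusted p under 0.05, 9 were higher (background 4.65%) and 0 lower (4.04%), and 0 passed limma or DESeq2. Egr3 was at 583, 519.8 and 659 against 123, 191, 409.9 and 279 (log2 1.36, limma adjusted p = 0.462), the 1 member without overlap, and Fosb at 41621, 33150 and 37200 against 8601, 10300, 35277 and 18332 (limma adjusted p = 0.523). Wild type library 3 reached the knockout range for Fosb and for Klf4 (16547, 13730 and 18829 against 5361, 5140, 14026 and 8546). The list score was 0.751, 0.288 and 0.306 in the knockout and -0.222 to 0.438 in the wild type. The count of 9 became 4 without knockout library 1 and 5 without wild type library 2 or wild type library 4, and the median became 0.20 without knockout library 1.

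Of 25 tested genes of NF-kB signalling, cytokines and chemokines, 12 had an unadjusted p under 0.05 and were higher and 0 were lower, against 4.65% and 4.04% of all tested genes. None passed limma, and DESeq2 called Icam1 and Nfkbia higher (background 0.378%). Icam1, the adhesion molecule that binds leukocyte integrins, was at 17141, 12612 and 15483 against 9049, 7779, 11558 and 8204 (log2 0.73, limma adjusted p = 0.393, DESeq2 adjusted p = 0.0218). Nfkbia, the inhibitor that NF-kB itself induces, was at 27335, 21672 and 22440 against 15332, 13354, 18970 and 15182 (DESeq2 adjusted p = 0.0393). The monocyte chemokine Ccl2 was at 3922, 2173 and 2999 against 1371, 1486, 2163 and 2149 and the neutrophil chemokine Cxcl2 at 2274, 1468 and 1652 against 1118, 1311, 1118 and 820.3, neither with overlap. Il6 was at 3425, 1368 and 2668 against 1655, 1258, 1807 and 1187, where knockout library 3 sat within the wild type range. The count of 12 was 5 without knockout library 1, 6 without knockout library 4, 4 without wild type library 1 or wild type library 2, and 6 when wild type library 4 was left out.

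In TGF-beta and BMP signalling, 7 of 24 tested genes had an unadjusted p under 0.05, all higher (background 4.65%), and Nog was called by DESeq2. BMP ligands signal through SMAD proteins to the Id genes, and Nog and Bambi restrain them. Id1 was at 1100, 1047 and 1019 against 880.4, 888, 816 and 874 (log2 0.29, limma adjusted p = 0.522) and Id3 at 20063, 13366 and 15350 against 11748, 10300, 12986 and 10247 (log2 0.51, limma adjusted p = 0.523), both without overlap. Pmepa1, a feedback inhibitor of TGF-beta, was at 6183, 4541 and 3906 against 2759, 3725, 3898 and 3147. The ligand gene Bmp2 was at 3915, 2033 and 2118 against 2099, 1613, 2428 and 1546, with overlap. The 7 became 4 without wild type library 2, and the median of 0.26 became 0.15 without knockout library 1.

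Wnt genes (29 tested) gave 0 calls by either test. The receptor gene Fzd1 was at 2983, 3043 and 2063 against 1498, 1506, 1963 and 1996 (log2 0.62, limma adjusted p = 0.476), without overlap, and the inhibitor genes Wif1 and Frzb went in opposite directions (549, 449.6 and 315 against 229.9, 430.2, 250.4 and 241, and 47.4, 44.4 and 40.8 against 69.9, 54.7, 174 and 60.4). Of 16 Notch genes, 0 had an unadjusted p under 0.05 (up to 2 in each direction when 1 library was left out). Of 28 interferon response genes, 3 were higher at an unadjusted p under 0.05 (background 4.65%), which became 1 when knockout library 1 or wild type library 4 was left out, 0 for knockout library 4 and 5 for knockout library 3 or wild type library 1. Oas3, an antiviral synthetase, was at 675, 953 and 1044 against 367, 469, 642 and 697 (limma adjusted p = 0.523). Of 27 growth factor genes, 2 were higher at that threshold (1 to 4 when 1 library was left out), among them Pdgfa at 707, 545 and 470.5 against 317, 398, 392 and 403 without overlap and Vegfa, the main angiogenic factor, at 4878, 5138 and 5380 against 2991, 3097, 5251 and 4159.

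**Figure D4:**
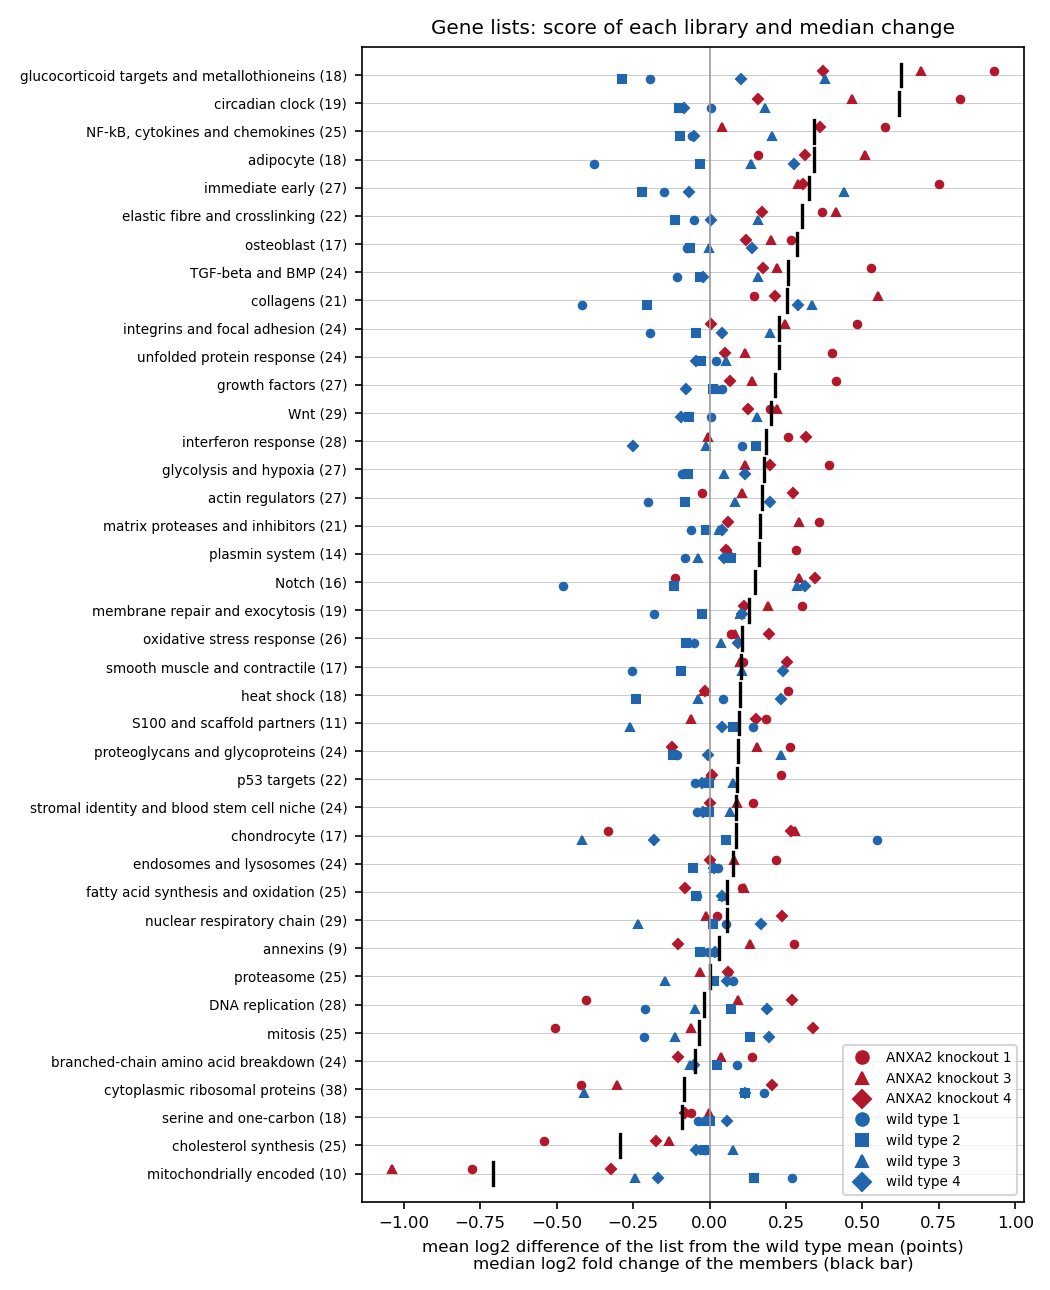
Score of each of the 40 gene lists in each library (points, mean log2 difference of the tested members from the wild type mean) and median log2 fold change of the members (black bar), with the number of tested members in parentheses; red is knockout and blue is wild type. Glucocorticoid and clock lists have the highest medians (0.63 and 0.62) and mitochondrially encoded genes the lowest (-0.71). For the glucocorticoid and clock lists red and blue points overlap, and for the mitochondrial list they do not.

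Genes of the mitochondrial genome, which encode core subunits of the respiratory chain, were the list with the lowest median. All 10 tested members lay below 0, the median log2 fold change was -0.71, and 9 had an unadjusted p under 0.05 (background 4.04%), while 0 passed limma and DESeq2 called mt-Co1. mt-Co1, a catalytic subunit of complex IV, had 7328, 5370 and 8836 normalised reads in the knockout, against 20480, 16013, 11092 and 12104 in wild type libraries 1 to 4 (log2 -1.04, limma adjusted p = 0.392, DESeq2 adjusted p = 0.0104). mt-Nd4 of complex I was at 1479, 1387 and 1784 against 2891, 2629, 2020 and 2108 and mt-Cytb of complex III at 8317, 6032 and 9389 against 16726, 14471, 9826 and 10551, neither with overlap. Wild type libraries 1 and 2 were the highest for each of these 3 genes. mt-Co2 (16.2, 11.6 and 27.6 against 30.7, 43.9, 34.9 and 31.7), mt-Atp6 and mt-Co3 had far fewer reads than the other members, so their values are uncertain. Without knockout library 3 the 9 became 4.

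Of 29 tested nuclear-encoded subunits, 22 lay above 0 (54.1% of all tested genes, median log2 fold change 0.06). Uqcrc1 of complex III (5814, 5392 and 5173 against 4617, 4554, 4672 and 4878) was the 1 higher at an unadjusted p under 0.05 (background 4.65%). Sdhb of complex II was at 2340, 2333 and 2514 against 2250, 2097, 2033 and 2282. The count of 1 was 0 with TMM scaling and when any library other than knockout library 4 was left out. The difference between both sets of subunits was not tested.

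Sterol pathway genes lay below 0 in 21 of 25 cases (median log2 fold change -0.29), where 54.1% of all tested genes lay above 0. At an unadjusted p under 0.05, 7 were lower (background 4.04%), and 0 passed limma or DESeq2. Cells make cholesterol from acetyl-CoA through a chain of enzymes that the factor SREBP2 raises when sterols run low. Idi1, the isomerase of isopentenyl units, was at 144, 199 and 202 against 315, 321, 305 and 234 (log2 -0.69, limma adjusted p = 0.459). Its groups did not overlap, and knockout library 1 was the lowest. Of 25 tested genes of fatty acid synthesis and oxidation, 17 lay above 0 (median log2 fold change 0.06), and 3, all desaturase genes, were lower at an unadjusted p under 0.05. Of these, Fads1 (1627, 1900 and 1604 against 2634, 2389, 2649 and 1928) and Scd2 (3709, 4540 and 4142 against 5865, 6337, 6494 and 4617) were lower without overlap (limma adjusted p = 0.476 and 0.497). Without knockout library 1 the 7 lower sterol genes became 3, and the median of the sterol list was -0.18.

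Of 27 glycolysis and hypoxia genes, 25 lay above 0 (54.1% of all tested genes, median log2 fold change 0.18) and 4 were higher at an unadjusted p under 0.05 (background 4.65%). The 4 became 2 when knockout library 1, wild type library 1 or wild type library 2 was left out. Pgk1, a kinase of lower glycolysis, was the 1 DESeq2 call, at 2605, 2533 and 2612 against 1743, 1923, 1817 and 2116 (log2 0.45, limma adjusted p = 0.335, DESeq2 adjusted p = 0.0176). The knockout libraries were close together and clear of the wild type. Hk2, a hexokinase, was at 2020, 1089 and 1754 against 658, 724, 1286 and 1207, and Pfkfb3, which makes an activator of glycolysis, at 899.9, 778 and 888 against 524, 599, 653 and 744. In the unfolded protein response, 4 of 24 genes were higher (background 4.65%) and 1 lower (4.04%) at an unadjusted p under 0.05, with Sdf2l1 at 2101, 1549 and 1689 against 1292, 1260, 1173 and 1346 and Creld2 at 2889, 1782 and 1779 against 1552, 1374, 1414 and 1148. Of 22 p53 targets, the cell cycle inhibitor Cdkn1a was at 16780, 11491 and 11735 against 8938, 8101, 10786 and 9132 (log2 0.51, limma adjusted p = 0.523) and Rrm2b, a ribonucleotide reductase subunit, at 377, 279 and 319 against 455, 498, 441 and 429.8 (log2 -0.49), in opposite directions and both without overlap.

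Matrix genes showed no limma call, and 1 of them passed DESeq2. Versican (Vcan), a large proteoglycan of loose matrix, had 3343, 3632 and 3387 normalised reads in the knockout, against 4944, 5551, 5097 and 4856 in wild type libraries 1 to 4 (log2 -0.56, SE 0.0961, limma adjusted p = 0.118, DESeq2 adjusted p = 5.87e-06). Both groups were tight and well apart. Elastin (Eln) was at 9464, 13699 and 17841 against 8497, 6656, 8868 and 6553 (log2 0.80, limma adjusted p = 0.471) and the microfibril gene Mfap2 at 2175, 2389 and 2546 against 2024, 1786, 1832 and 1750, both without overlap. Of 21 collagen genes 19 lay above 0 (54.1% of all tested genes), and 1, Col8a2 (3614, 3230 and 2240 against 1723, 1840, 2770 and 2053), had an unadjusted p under 0.05 (background 4.65%). That count was 5 when wild type library 3 was left out, 2 for knockout library 1 or 4, and 0 for any other library. Fibronectin (Fn1) ranged more within the wild type than between groups, at 785680, 642620 and 447220 against 201410, 349650, 571980 and 615610. The fibronectin receptor subunit Itga5 was at 11744, 9306 and 7288 against 4399, 4282, 6704 and 6432 (log2 0.80, limma adjusted p = 0.476), without overlap, and Plaur, the urokinase receptor, at 10927, 11812 and 11549 against 8013, 7751, 9562 and 9906 (limma adjusted p = 0.523), also without overlap. Within the plasmin system (14 tested) Plat, the tissue activator that the annexin A2 complex binds, was at 8264, 5485 and 6188 against 7344, 5595, 5275 and 4500, with overlap.

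In the membrane settings where annexin A2 is known to act, 0 of 19 membrane repair and exocytosis genes passed limma or DESeq2. The same held for 0 of 24 endosomal and lysosomal genes. Of all tested genes, 0.112% passed limma and 0.645% DESeq2, so lists of this size would hold few calls in any case. At an unadjusted p under 0.05, 3 of the 19 and 2 of the 24 were higher (background 4.65%) and 0 lower (4.04%). Syt7, a calcium sensor of lysosome exocytosis, was at 77.6, 75.5 and 78.6 against 8.48, 33.2, 60.6 and 40.3 (log2 1.38, limma adjusted p = 0.565), and Pdcd6, a calcium-binding adaptor, at 2567, 2397 and 2536 against 2244, 2029, 2034 and 2044. The lysosomal protease gene Lgmn was at 3282, 3052 and 2832 against 1806, 2168, 2323 and 2595 (log2 0.47, limma adjusted p = 0.485). Groups did not overlap for these 3 genes, 2 of the 19 and 1 of the 24, where 4.56% of all tested genes lay wholly above the wild type.

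The most abundant transcripts did not separate the groups. Gelsolin (Gsn), which severs actin filaments, had 1201300, 1317600 and 993570 normalised reads in the knockout and 1291000, 975950, 1211700 and 944220 in the wild type, and the fibrillar collagen gene Col3a1 was at 705780, 1080800 and 790750 against 575810, 601420, 902830 and 970310. Col1a1 (262130, 467580 and 369250 against 111610, 155170, 362690 and 342950) and Col1a2 overlapped as well, with wild type libraries 1 and 2 the lowest of the wild type for both.

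Of 27 actin regulators, Coro2b was the 1 call by either test, and 21 of the list lay above 0 (54.1% of all tested genes, median log2 fold change 0.17). Of 17 smooth muscle and contractile genes, 0 had an unadjusted p under 0.05, and Cspg4, the NG2 proteoglycan of pericytes, was at 6552, 5366 and 3905 against 2000.3, 2799, 4938 and 4288. Of 21 matrix proteases and inhibitors, 2 were higher at an unadjusted p under 0.05 (background 4.65%) and 0 lower (4.04%). The 2 were the aggrecanase gene Adamts4 (7088, 3164 and 7168 against 2247, 2341, 3766 and 2894) and Adamts1, both with overlap and past neither test. Of 18 heat shock genes, 3 were higher and 1 lower at an unadjusted p under 0.05 (background 4.65% and 4.04%), and 0 were so when knockout library 1 or wild type library 2 was left out. Hsf1, the master regulator of that response, was at 2161, 1757 and 1733 against 1547, 1570.0, 1677 and 1499 without overlap.

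Of 26 oxidative stress genes, 0 had an unadjusted p under 0.05 while 22 lay above 0 (54.1% of all tested genes, median log2 fold change 0.11). Of 18 serine and one-carbon genes, 2 were lower at that threshold (background 4.04%), Aldh1l1 (81.9, 104 and 77.6 against 118, 120.2, 127 and 126, without overlap) and its mitochondrial relative Aldh1l2. Of 25 proteasome genes, 1 was higher at that threshold (background 4.65%), the catalytic subunit gene Psmb6 at 3046, 2731 and 3033 against 2546, 2408, 2044 and 2687. None of the genes of these 3 lists passed limma or DESeq2. Such small counts moved with single libraries, from 1 to 4 higher proteases, 0 to 2 lower one-carbon genes and 0 to 1 higher proteasome or oxidative stress genes when 1 library was left out.

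Lineage genes gave no call by either test: 17 osteoblast, 18 adipocyte, 17 chondrocyte and 24 stromal identity and niche genes were tested. At an unadjusted p under 0.05, 4 adipocyte, 2 chondrocyte and 3 stromal identity genes were higher (background 4.65%). At that threshold 2 stromal identity genes were lower (background 4.04%), with 0 osteoblast genes in either direction. The adipocyte median log2 fold change was 0.34. Its count of higher genes became 1 without knockout library 3 and 6 without knockout library 4. Aggrecan (Acan) of cartilage was at 281, 431 and 302 against 130.3, 196, 134 and 242 (log2 0.97, limma adjusted p = 0.471) and Cebpb, an early regulator of fat cell formation, at 49411, 41855 and 43206 against 24190, 23781, 36848 and 34849 (log2 0.61, limma adjusted p = 0.523), both without overlap. The surface marker gene Thy1 was at 597, 765 and 636 against 513, 506, 468 and 539, without overlap, and the niche factor Angpt1, a ligand of the receptor Tie2, at 680.0, 919 and 615 against 1485, 1096, 1035 and 833, with overlap between knockout library 3 and wild type library 4. Of 28 DNA replication and 25 mitosis genes, 0 had an unadjusted p under 0.05. Without knockout library 4, 3 of each list were lower at that threshold (4.98% of all tested genes in that fit), with medians of -0.15 and -0.27. Without knockout library 1 the medians were 0.16 and 0.17, with 0 genes at that threshold. Mki67, the proliferation marker, was at 1392, 2548 and 3342 against 2024, 3325, 2735 and 3307, lowest in knockout library 1. Of 38 ribosomal protein genes, Rpl29 was the 1 with an unadjusted p under 0.05, and the median of the list was -0.08. Single libraries moved these values: 7 were lower with a median of -0.25 when wild type library 3 was left out, 4 with a median of -0.31 for knockout library 4, and the median was 0.01 for knockout library 1.

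Markers of other cells were read in all libraries. Neutrophil markers (18 of 18 in the table) summed to 1.03 to 2.75% of reads in the knockout and 1.3 to 2.21% in the wild type, with knockout library 4 highest and knockout library 1 lowest. All 18 had a log2 fold change above 0 and 0 had an unadjusted p under 0.05, and without knockout library 4 the median of 0.23 turned to -0.11. Macrophage and monocyte markers (20 of 20) summed to 0.289 to 0.635% against 0.339 to 0.491%, erythroid markers (17 of 18) to 0.0784 to 0.175% against 0.105 to 0.321%, and osteoclast markers (11 of 12) to 0.151 to 0.184% against 0.137 to 0.174%. As percent of reads the ranges of both groups overlapped in each case. As sums of normalised reads those of osteoclast markers did not, at 44746 to 49194 in the knockout against 33948 to 43967. B and plasma cell markers (20 of 21) summed to 0.14 to 0.183% against 0.139 to 0.182%. Of the 20 tested, 8 lay above 0 (54.1% of all tested genes) and 12 below, and none passed limma or DESeq2. Groups did not overlap for 3 higher and 2 lower members (background 4.56% and 4.63%). Among these, the antibody genes Igkc (6624, 7411 and 10456 against 4864, 6003, 3658 and 5508) and Jchain (1291, 1403 and 1984 against 984, 948, 529.9 and 848) were higher. Ms4a1, the CD20 gene of B cells, was lower (521, 374 and 447 against 666, 910.2, 595 and 585). The antibody gene Ighm overlapped, at 11723, 9615 and 12665 against 9225, 12827, 11842 and 12467. T and NK, endothelial, megakaryocyte and mast cell, and neural markers each summed to 0.078% of reads or less in every library.

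Of 11 tested osteoclast markers, 5 lay above 0 (54.1% of all tested genes) and 6 below. Mmp9, the member with the most reads, was at 13721, 19361 and 21728 against 12521, 15072, 17046 and 19025, with overlap. At an unadjusted p under 0.05, 1 marker was higher and 2 lower (background 4.65% and 4.04%). The higher one was Nfatc1, a transcription factor that drives osteoclast formation and is active in other cells too, at 10884, 5587 and 7403 against 4513, 4242, 6326 and 4712 (log2 0.65, limma adjusted p = 0.534), with overlap. The osteoclast fusion gene Dcstamp was at 2.16, 3.55 and 1.02 against 22.2, 20.7, 4.66 and 13.4 and the osteoclast receptor gene Oscar at 2.16, 3.55 and 7.14 against 19.1, 24, 11.6 and 7.68, both at few reads, without overlap and past neither test, while Ctsk, which stromal cells also express, was at 10992, 9222 and 7884 against 7990, 8425, 6676 and 7762. Genes with 0 reads in any library other than wild type library 4 are not in the table, so a marker at 0 in a knockout library could not be read here. The part of blood cells in the results for Ccl19, Mpeg1, Cd163, Igkv5-43 and Ighv1-26 was not tested.

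**Figure D5:**
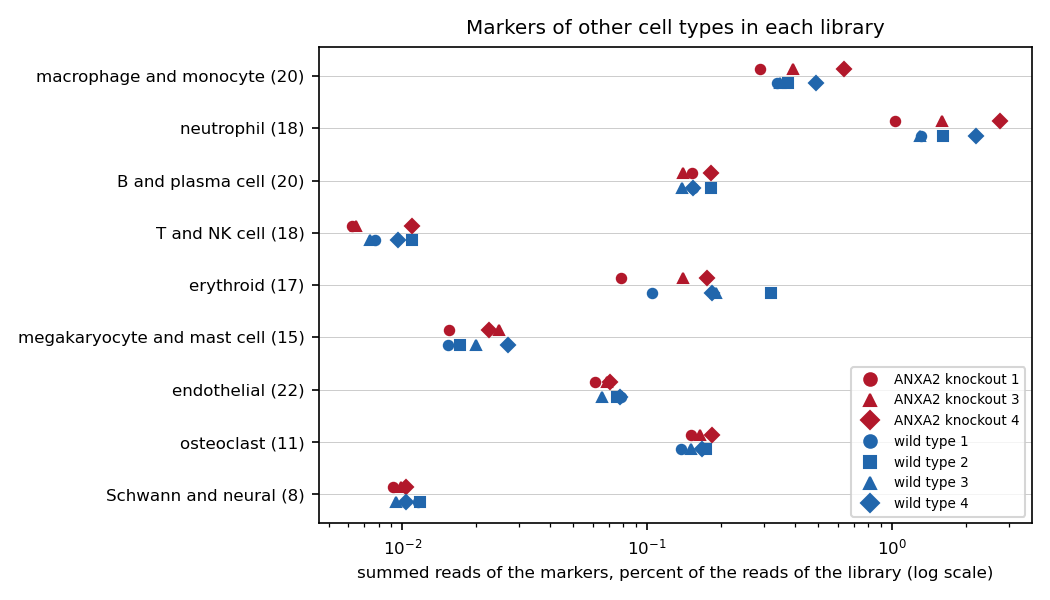
Summed reads of the markers of other cell types in each library as a percent of that library's reads, on a log scale, with the number of markers in the table in parentheses; red is knockout and blue is wild type. Neutrophil markers are the largest sum, from 1.03% in knockout library 1 to 2.75% in knockout library 4, and red and blue points overlap in every row.

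The fit was repeated with log2 Xist as a covariate, since Xist differed between libraries of 1 group. That fit called 248 genes higher (1.54%) and 36 lower (0.223%). All 18 limma calls were among them, 137 of the 284 had groups that did not overlap, and 57 were also DESeq2 calls. Many of the added genes were low in wild type libraries 1 and 2 and close to the knockout in wild type libraries 3 and 4. Fosl2, an AP-1 transcription factor, had 7540, 6981 and 8111 normalised reads in the knockout, against 1882, 2135, 6533 and 5955 in wild type libraries 1 to 4 (log2 1.09, limma adjusted p = 0.565, with the covariate 0.00484). Samd1, a reader of unmethylated CpG islands, was at 318, 447 and 519 against 54, 82.1, 225 and 282 (with the covariate, limma adjusted p = 0.00645). Thra, the thyroid hormone receptor alpha, was at 2491, 3256 and 3093 against 1249, 1133, 1680 and 1726 (with the covariate, limma adjusted p = 0.00645, DESeq2 adjusted p without it 0.000113), without overlap. Anxa11, the membrane repair gene Capn1 and the lysosomal gene Atp6v0d1 passed with the covariate too (limma adjusted p = 0.0233, 0.0418 and 0.0417), each higher and with overlap.

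Zfta and Col6a6 were higher with the covariate as well (limma adjusted p = 0.00758 and 0.00788), at 1456, 2259 and 2099 against 479.9, 566, 1656 and 1366 and 2205, 3692 and 3305 against 906, 859.6, 2737 and 2531, with overlap in both. Lower with the covariate was Snai2, a repressor of epithelial genes in mesenchyme, at 508, 474 and 384 against 799.9, 914, 576 and 623 (limma adjusted p = 0.0309), without overlap. Zfp871 was at 1014, 1086 and 1173 against 1780, 2078, 1542 and 1441 and the host gene transcript Mir99ahg at 235, 201 and 208 against 438, 472, 288 and 246. The libraries with high Xist and those with Xist near 1 read were both wild type, and whether Xist marks female and male cells or another difference was not tested. Genes of the Y chromosome that would tell them apart, such as Ddx3y and Uty, were not analysed here.

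Single knockout libraries also stood apart from the other 6, which is a description with no test. Lgr5, a receptor for R-spondins that marks stem cells of many tissues, was at 2800 normalised reads in knockout library 4 and at most 146.7 elsewhere. In knockout library 1, the carbonic anhydrase gene Car4 was at 1021 against at most 133.5 elsewhere, Col6a5 at 4617 against at most 1080 and Egln3, an oxygen sensor that hypoxia induces, at 724 against at most 198. Knockout library 3 held 1899 normalised reads of the immunoglobulin constant gene Ighg2b against at most 701 elsewhere, and Nr4a3, an immediate early nuclear receptor, at 481 against at least 786. Immunoglobulin variable segments were apart in each of the 3 knockout libraries, among them Igkv12-46 (308) in library 1, Igkv6-15 (271) in library 3 and Igkv9-120 (110.2) in library 4.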

How the data were processed

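RNA of primary mouse marrow stromal cells was sequenced in 3 ANXA2 knockout and 4 wild type libraries. The authors deposited, per gene and library, read counts divided by a size factor of the library, a normalised signal. Build GRCm39 and the tools STAR, HTSeq, Trim Galore and DESeq2 are named, with no versions, per the submitters' processing notes. Genes with 0 reads in any library other than wild type library 4 are not in the table. The authors also deposited log2 fold changes, p-values and a test score, which were not used. The knockout columns carry numbers that differ from the sample titles, so they were matched to the genotype and not to single samples.

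Each column held whole multiples of 1 step, so whole reads were recovered (100% of values within 0.001 of a whole number, size factors 0.8587 to 1.2063). The main test was limma 3.58.1 (R 4.3.3, trend) on log2(normalised reads + 1) over genes with at least 10 normalised reads in at least 3 libraries, with Benjamini-Hochberg adjustment over all 16123 genes and a threshold of 0.05. edgeR 4.0.16 and DESeq2 1.42.0 were run on the recovered counts as alternatives, and DESeq2 gave no adjusted p for 10 genes. The other alternatives were limma-voom, TMM scaling, pseudocounts of 0.5 and 5, no filter, a minimum of 50, log2 Xist as a covariate, a replicate block and leaving out each of the 7 libraries. The test scripts were checked on simulated data. Libraries of 1 group differed far beyond counting error (chi-square per degree of freedom 29.6 to 105.8), and intervals were widest for genes of few reads.

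The comparison, the 40 gene lists and the 10 marker lists were chosen with earlier results of these data known, so list counts and medians are descriptions. Genes named were Anxa2, S100a10, all limma calls, up to 12 genes in each direction that passed DESeq2 alone with groups that did not overlap, a mean of at least 50 and no predicted-gene name, up to 3 members of each list by smallest p, the 5 genes of highest mean, the 4 genes furthest above and the 4 furthest below the other 6 libraries in each knockout library, and up to 6 in each direction called with the Xist covariate alone. Other members were named after their values were seen. A few genes in these sets are not reported here. Chromosomes and gene types came from GENCODE annotation of GRCm38, which matched 99.76% of tested genes, and promoter windows from RefSeq on GRCm38.p6. No coordinates of the authors' build were used.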

Additional observations from a re-analysis of the deposited data

Results flagged for a closer look

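Among the 219 named genes, 16 had a wild type library whose gap to its nearest neighbour, divided by the range of the 4 wild type libraries, passed Dixon's 95% critical value, which chance gives in about 1 in 20 groups of values. Wild type library 1 was the highest for Plac9a (3836 normalised reads), Lrmda (15.89), Pdcd6 (2244), Ilk, the integrin-linked kinase (539.3), and Car4 (133.5). It was the lowest for Pdgfa (316.8) and for the B cell chemokine gene Cxcl13 (76.28).

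Wild type library 2 was the highest for the immunoglobulin segment Igkv5-43 (11.61) and for the Wnt inhibitor gene Wif1 (430.2). Wild type library 3 was the highest for the cartilage regulator Sox9 (3009) and for Frzb (173.5), and the lowest for the tropomyosin gene Tpm1 (2041) and the segment Igkv1-110 (85.01). Wild type library 4 was the highest for the enolase gene Eno1 (16870), the platelet factor gene Pf4 (536.3) and Rpph1, the RNA of ribonuclease P (352.1). Plac9a and Lrmda kept their calls without wild type library 1, and Igkv5-43 kept its call without wild type library 2. Plac9a also kept it in every other removal of 1 library, while Lrmda and Igkv5-43 lost theirs in every other one.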

How the results depend on the processing

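The direction of the Anxa2 difference and its side of the threshold were the same under all 17 alternatives, with a highest adjusted p of 0.0361. The count of 18 called genes was 18 with TMM scaling, limma-voom, either pseudocount or no filter, 20 with a minimum of 50 and 21 with edgeR. It was 104 with DESeq2 (61 higher, 43 lower) and 284 with log2 Xist as a covariate (248 higher, 36 lower), and the cause was not tested. Leaving out 1 library gave 8 to 16 calls, the 3 lowest counts being 8 (knockout library 3 left out), 10 (wild type 4) and 11 (wild type 2), in fits of fewer samples. The replicate block by column number called 22 genes, 14 of the 18 among them. The pairing check gave correlations of deviations of 0.31, 0.084 and 0.32 for numbers 1, 3 and 4. The other pairs ran from -0.375 (knockout library 1 with wild type library 4) to 0.129 (knockout library 3 with wild type library 4). Whether libraries of the same number share an animal or a batch was not tested.

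Of 3216 values of named genes under these alternatives, 3078 kept their direction and side of the threshold, 84 newly passed it and 52 no longer did. Xist alone changed sign, with a log2 fold change of 2.31 by limma and -1.43 by both DESeq2 and edgeR. Of 500 list medians, 458 moved by less than the spread between libraries and 42 by more, 17 of these without knockout library 1. The counts of list members without 1 library were added after seeing the data. Intervals were widest for the genes of few reads, where depth is lowest.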
